A study of Mus musculus with 12 samples.

Results

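The interleukin-1 system and the inflammasome were described in CCl4-injured mouse liver by 10 genes. The genes were chosen by name, with earlier results of these data known. They are the ligands Il1a, Il1b and Il18, the receptor antagonist Il1rn, the receptor Il1r1, its accessory protein Il1rap, and the inflammasome and pyroptosis genes Nlrp3, Pycard, Casp1 and Gsdmd. All 10 genes were listed among the 14188 protein-coding genes, and they held 21 of the 29883 listed transcripts. Liver RNA had been sequenced from 12 mice, 6 in each of a PZH and a control group. The mice were males and 6 weeks old at the start. Their strain is C57BL/8 in the sample labels and C57BL/6J in the methods of the study. All 12 mice received CCl4, a solvent that injures hepatocytes, as a mixture with corn oil at 10 µl/g by intraperitoneal injection, and they were killed in week 8. The PZH group also received Pien Tze Huang (PZH), a traditional Chinese medicine, into the stomach once a day at 0.25 mg/g, while the control group received water. Every control liver was therefore a CCl4-injured liver, and no uninjured liver was analysed here.

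Interleukin-1 alpha and interleukin-1 beta bind the same receptor, IL1R1, which signals only after it has taken up the accessory protein IL1RAP, and the receptor antagonist occupies IL1R1 without recruiting the accessory protein. Interleukin-1 beta and interleukin-18 are made as inactive precursors, which caspase-1 cleaves after a sensor such as NLRP3 has assembled an inflammasome with the adaptor PYCARD (ASC), and gasdermin D, cut by the same protease, forms the pores through which they leave the cell. In the liver, Kupffer cells, recruited monocytes and neutrophils are known sources of interleukin-1 beta, and hepatocytes answer interleukin-1 with acute-phase proteins.

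Of the 10 genes, 4 were lower in the PZH group (Il1b, Il1rn, Il1r1 and Nlrp3), 2 were higher (Il18 and Il1rap), and Il1a, Pycard, Casp1 and Gsdmd did not pass the test. A gene was called at an adjusted P below 0.05 in limma on log2(FPKM + 1), where FPKM counts the fragments of a transcript relative to its length and to the size of the library, and a gene value is the sum of its listed transcripts. The background was high, since 44.8% of all genes were called, 12.7% as higher and 32.1% as lower. The 6 of 10 members called are to be read against that share. The median difference of the 10 genes was -0.18 on the log2 scale, against -0.11 over all genes. Among the 10948 genes with a mean of at least 1 FPKM, the median of all genes was -0.17. Of these genes 5644 were called, with 5 of 9 members. By the criteria of the study, an absolute log2 fold change of at least 1 with an unadjusted P below 0.05, 2 members were lower (Il1b and Il1rn) and none was higher, against 4.02% of all genes (1.52% higher and 2.5% lower). The values of the groups did not overlap for 5 members (Il1b, Il1rn and Nlrp3 below, Il18 and Il1rap above the control group), against 24.3% of all genes (6.46% higher and 17.9% lower). Because 1 is added before the logarithm, the differences understate the change of weakly expressed genes.

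**Figure D1:**
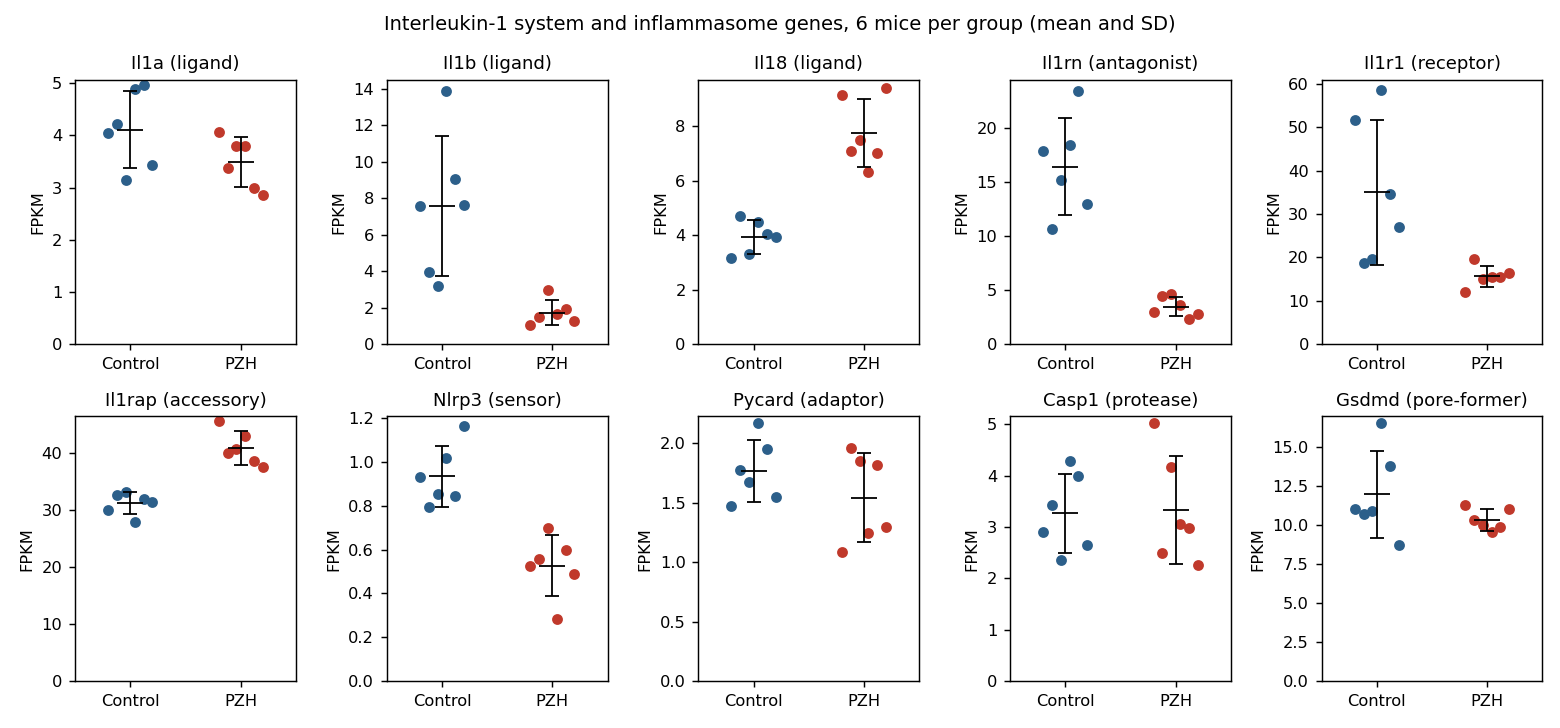
FPKM of the 10 genes in each mouse (vertical axes, linear, each starting at 0) for the control group (blue) and the PZH group (red), with 6 mice per group. Horizontal bars are the mean and the error bars the SD. The groups are separate for Il1b, Il1rn, Nlrp3, Il18 and Il1rap.

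**Figure D2:**
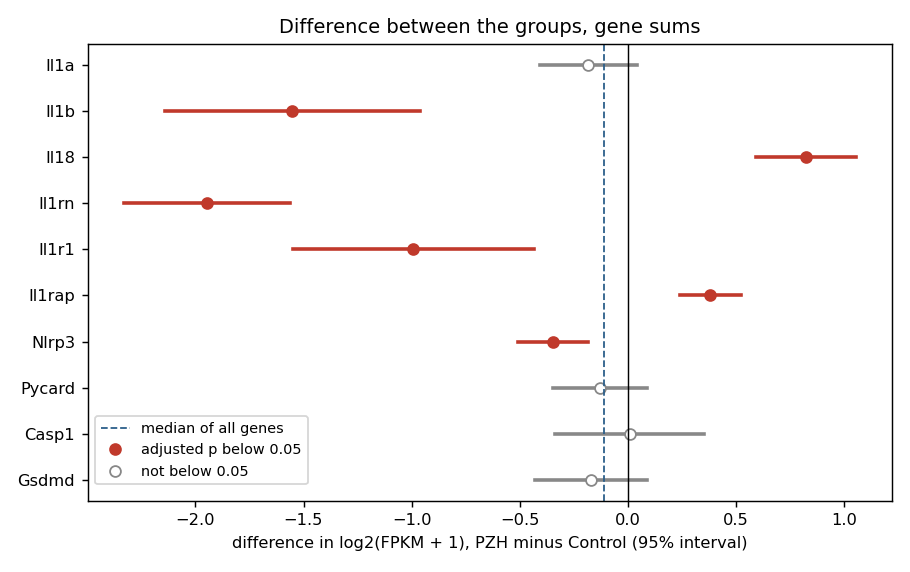
Difference between the groups in log2(FPKM + 1), PZH minus control, with 95% intervals from limma (horizontal axis) for each of the 10 genes (vertical axis). Filled points have an adjusted P below 0.05. Il1rn has the lowest value (-1.95) and Il18 the highest (0.82), and the dashed line is the median of all genes (-0.11).

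The overall composition of the RNA also differed between the groups. The summed FPKM of 8 hepatocyte markers ranged from 41149 to 56977 in the PZH group and from 22507 to 36354 in the control group, with no overlap, and 5 of the 8 were higher (Alb, Ttr, Cps1, Ass1 and Cyp2e1) and 1 lower (Hnf4a). Most of this sum was Alb, at 33360 to 46362 FPKM in the PZH group and 18015 to 29477 FPKM in the control group. In whole liver, fewer cells of a type and less RNA per cell cannot be told apart. Scaling each mouse by a median ratio moved the median difference of all genes from -0.11 to -0.005, and the calls then split into 2735 higher and 2795 lower genes in place of 1798 and 4560. The 6 called members kept their call and direction under that scaling. The labels name no batch.

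Among the ligands, Il1b, the main secreted interleukin-1 of activated macrophages and monocytes, fell. It lies on chromosome 2 at 129364570 to 129371139 on the minus strand (GRCm38). Il1b ranged from 1.06 to 2.99 FPKM in the PZH group (median 1.57) and from 3.19 to 13.9 FPKM in the control group (median 7.62). PZH 3 was the highest mouse of its group and Control 3 the lowest of its own, and the groups did not overlap. The means were 1.74 ± 0.687 and 7.56 ± 3.84 FPKM (SD, n = 6), which is 4.35-fold lower in the PZH group. On the log2 scale the difference was -1.55 (SE 0.27, 95% interval -2.14 to -0.96, adjusted P = 0.000603). The control mice were spread widely, since Control 4 held 4.34 times the level of Control 3.

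Il1b is made by myeloid cells, and the markers of these cells did not all move with it. Of 10 monocyte and recruited macrophage markers, 5 were lower and 2 higher (1 and 2 with the median-ratio factor), and their summed FPKM overlapped, from 248 to 425 in the PZH group and from 253 to 391 in the control group. Most of this sum was Lyz2, with means of 235 FPKM in the PZH group and 190 FPKM in the control group, which did not pass the test. The 5 markers that were lower included Cd14, the lipopolysaccharide co-receptor, at -2.73 on the log2 scale. The 2 that were higher were Gpnmb and Trem2. The Kupffer cell list of 8 held 2 higher (Clec4f and Vsig4) and 1 lower (Marco; 4 and 1 with the median-ratio factor), with sums of 284 to 412 and 285 to 368. Of 12 neutrophil markers, 3 were lower (Cxcr2, Csf3r and Mmp9), none was higher and 9 did not pass the test. The median of this list was 0.08 on the log2 scale, against -0.11 over all genes. Among the 9, Ngp differed by 1.16 and was higher in every PZH mouse than in any control mouse (limma, adjusted P = 0.0962). The shares called were 70% of the monocyte, 37.5% of the Kupffer cell and 25% of the neutrophil markers, against 44.8% of all genes. PZH 3 was the highest of all mice in several lists. In the neutrophil list it stood apart, with a summed FPKM of 175 against 15.1 to 71.2 in the other 11 mice, and its S100a8 was at 76.0 FPKM against 3.76 to 30.6. In the Kupffer cell list it was at 412 against 284 to 368, and it also had the highest sums of the dendritic cell, T and NK cell and sinusoidal endothelial markers. Without PZH 3 the difference of Il1b was -1.67 (adjusted P = 0.000675). No marker of these 3 lists was at 0 in all mice. The part of cell numbers in the result was not tested.

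Il1a, the ligand that is active without cleavage and is held by many cell types, ranged from 2.86 to 4.07 FPKM in the PZH group (median 3.59) and from 3.14 to 4.96 FPKM in the control group (median 4.13). The groups overlapped over most of their range. The difference of -0.18 on the log2 scale (limma, 95% interval -0.41 to 0.04, adjusted P = 0.177) did not pass the test. The interval leaves room for a larger fall as well as for no change. Il1a lies next to Il1b on chromosome 2, from 129299610 to 129309972, also on the minus strand.

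Il18, which Kupffer cells and epithelial cells hold as a precursor also in the resting state, moved the other way from Il1b. It ranged from 6.33 to 9.40 FPKM in the PZH group (median 7.31) and from 3.18 to 4.71 FPKM in the control group (median 4.0), so the lowest PZH mouse lay above the highest control mouse. The mean was 7.76 ± 1.24 against 3.94 ± 0.616 FPKM (SD, n = 6), which is 1.97-fold higher, and the difference was 0.82 on the log2 scale (SE 0.11, 95% interval 0.59 to 1.05, adjusted P = 8.6e-05). The spread within each group was small, with a highest to lowest ratio of 1.48 in both groups. In PZH mice Il18 was above Il1b in 6 of 6. In control mice the mean of Il18 (3.94 FPKM) was below that of Il1b (7.56 FPKM), but the ranges overlapped, and Il18 was above Il1b in Control 2 and Control 3.

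The rise of Il18 is stated for the gene but not for its main transcripts. Of the 4 listed transcripts, Il18-201 and Il18-202 share 4 of their 5 exons, have the same ends and the same length of 702 bases, and both code for 192 amino acids. Il18-202 was listed at 0 in 4 mice, while Il18-201 was at 6.13 FPKM in PZH 2 and at or below 0.180 FPKM in every other mouse. Il18-204, which starts upstream and codes for the same number of amino acids, was at 5.26 FPKM in PZH 4 and at or below 2.83 FPKM in the other mice. The listed values therefore moved between near-identical transcripts from mouse to mouse, whereas the gene sum did not. The short Il18-203, with 78 codons, was higher in the PZH group (0.660 ± 0.287 against 0.277 ± 0.148 FPKM, difference 0.37 on the log2 scale, adjusted P = 0.0433), and this call was lost without PZH 1, PZH 2, PZH 4 or any control mouse but Control 3, with an adjusted P of up to 0.0898.

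Il1rn, the antagonist that blocks IL1R1, showed the lowest difference of the 10 genes. It ranged from 2.36 to 4.62 FPKM in the PZH group (median 3.29) and from 10.7 to 23.4 FPKM in the control group (median 16.5). The groups were far apart, since the lowest control mouse (Control 2) held more than the highest PZH mouse (PZH 3). The means were 3.47 ± 0.905 and 16.4 ± 4.48 FPKM (SD, n = 6), a 4.73-fold lower level, and the difference was -1.95 on the log2 scale (SE 0.18, 95% interval -2.33 to -1.56, adjusted P = 1.4e-05).

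Antagonist and agonists were also set against each other within each mouse, as a ratio that does not depend on the scaling of the library. The ratio of Il1rn to the sum of Il1a and Il1b ranged from 0.476 to 0.908 in the PZH group (median 0.668) and from 0.982 to 2.40 in the control group (median 1.41), without overlap. Its log2 difference was -1.15 (exact permutation test over all labellings of the mice, two-sided, P = 0.0022, the smallest it can give). Against Il1b alone the log2 difference was -0.20 and did not pass the test (exact permutation test, P = 0.548). The sum differs from Il1b by Il1a, which did not pass the test between the groups.

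Il1rn has several promoters, and the form that is made depends on which is used. Il1rn-201 codes for 178 amino acids and is the secreted antagonist, while Il1rn-204 starts upstream, codes for 159 amino acids and is the intracellular form, which carries no signal peptide. The RefSeq promoter sequences of the upstream and of a downstream start are shown because the transcripts that begin near them code for different forms. The downstream start shown lies nearest that of Il1rn-202, and a further downstream start is not shown. Both sequences are on the plus strand of GRCm38.p6 and are the 300 bases around the start, at chr2:24336610-24336909 and chr2:24345041-24345340. Capitals mark an AP-1 motif (TGANTCA, either strand), which lay 141 bases before the upstream start, and the downstream sequence held none of the motifs searched.
Il1rn upstream start: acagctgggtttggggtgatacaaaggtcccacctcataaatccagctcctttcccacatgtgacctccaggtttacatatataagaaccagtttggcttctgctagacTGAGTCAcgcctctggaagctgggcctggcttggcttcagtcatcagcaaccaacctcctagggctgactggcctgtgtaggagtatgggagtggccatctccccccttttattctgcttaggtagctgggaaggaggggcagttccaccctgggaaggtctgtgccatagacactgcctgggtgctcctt
Il1rn downstream start: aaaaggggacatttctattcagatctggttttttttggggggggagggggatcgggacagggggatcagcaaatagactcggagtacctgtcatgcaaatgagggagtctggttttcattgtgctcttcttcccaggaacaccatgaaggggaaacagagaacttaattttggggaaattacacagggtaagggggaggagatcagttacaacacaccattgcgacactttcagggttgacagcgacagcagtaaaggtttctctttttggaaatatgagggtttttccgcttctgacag

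Il1rn-201 made up 77.8% of the FPKM of the gene over the 12 mice. It ranged from 1.93 to 3.81 FPKM in the PZH group and from 8.76 to 17.7 FPKM in the control group, with means of 2.94 ± 0.745 and 12.5 ± 3.21 FPKM and a difference of -1.77 on the log2 scale (SE 0.17, adjusted P = 0.000105). Il1rn-204 ranged from 0.130 to 0.404 FPKM in the PZH group and from 1.33 to 4.22 FPKM in the control group. Its difference was -1.46 on the log2 scale (SE 0.16, adjusted P = 0.000158), which the added 1 makes smaller than the fall of the mean from 2.53 to 0.247 FPKM. The third listed form, Il1rn-202, with 162 codons, also fell (0.284 ± 0.201 against 1.34 ± 0.486 FPKM, difference -0.85 on the log2 scale, adjusted P = 0.00252). All 3 forms were separate between the groups in every mouse.

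By its share of the FPKM, the intracellular form fell further than the gene. Il1rn-204 held 15.1 ± 2.68% of the gene FPKM in control mice and 7.06 ± 2.11% in PZH mice, a difference of -8.08 percentage points (limma on shares, adjusted P = 0.0463). Among the shares of 17 member transcripts this was the only one called, against 0.332% of all 22918 transcript shares tested. The call was at the threshold, since it was lost without any 1 of 10 of the 12 mice (adjusted P up to 0.114, difference -8.92 to -7.49 points) and held without PZH 4 or without Control 2. The share of Il1rn-201 differed by 8.02 points (adjusted P = 0.164).

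Over all transcripts, 9 of the 21 member transcripts were called, 3 as higher and 6 as lower, against 19.7% of all transcripts (5.73% higher and 14% lower). The criteria of the study were met by 4 of the 21, all lower (Il1b-201, Il1rn-201, Il1rn-204 and Il1r1-201), against 3.23% of all transcripts (1.99% lower). With a pseudocount of 0.1 in place of 1 they were met by 8 of the 21, against 2981 of all 29883 transcripts. The groups did not overlap for 7 of the 21, against 12% of all transcripts (3.41% higher and 8.58% lower).

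**Figure D3:**
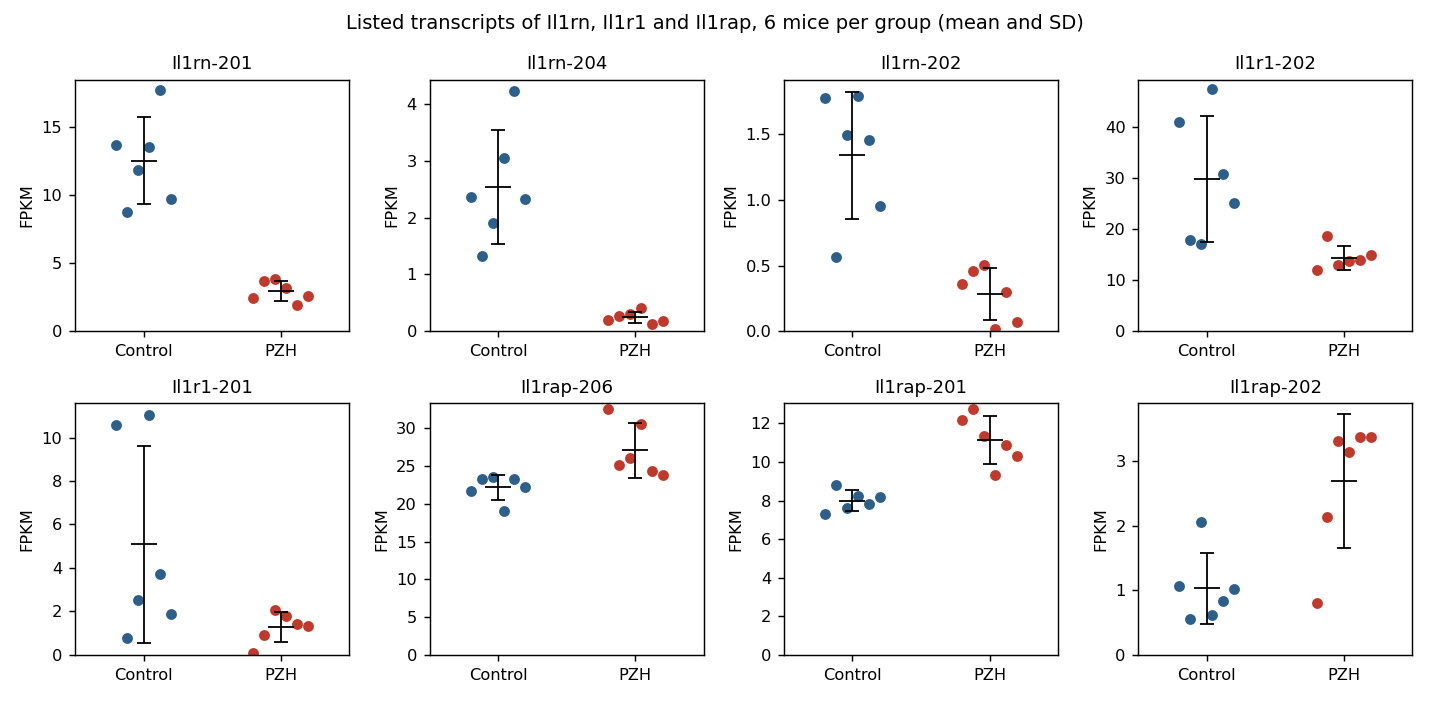
FPKM of the listed transcripts of Il1rn, Il1r1 and Il1rap in each mouse (vertical axes, linear, each starting at 0) for the control group (blue) and the PZH group (red), with 6 mice per group, the mean and the SD. The 3 Il1rn transcripts lie lower and Il1rap-206 and Il1rap-201 higher in every PZH mouse than in any control mouse, while the Il1r1 transcripts and Il1rap-202 overlap.

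The receptor Il1r1, which carries the signal for both interleukin-1 ligands, was lower in the PZH group. It ranged from 12.1 to 19.6 FPKM in the PZH group (median 15.5) and from 18.6 to 58.6 FPKM in the control group (median 30.8). Control 2, at 18.6 FPKM, lay within the PZH range, Control 3 was just above the highest PZH mouse, and Control 1 and Control 4 were highest at 51.5 and 58.6 FPKM. The means were 15.7 ± 2.39 and 35.0 ± 16.7 FPKM (SD, n = 6), and the difference was -0.99 on the log2 scale (SE 0.26, 95% interval -1.55 to -0.44, adjusted P = 0.00724). The control mice differed among themselves by up to 3.15-fold, against 1.61-fold in the PZH group. Control 2 and Control 3 were the lowest control mice and Control 4 the highest for both Il1b and Il1r1.

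Il1r1 has a distal and a proximal start on chromosome 1, and both transcripts are shown by their RefSeq promoters because they make proteins of nearly the same length from different starts. Both sequences are on the plus strand of GRCm38.p6, at chr1:40224830-40225129 and chr1:40266336-40266635, each of the 300 bases around its start. Capitals mark a C/EBP motif (TTGCNNAA) 133 bases before the distal start and an NF-kappaB consensus, on the opposite strand, 232 bases before the proximal start.
Il1r1 distal start: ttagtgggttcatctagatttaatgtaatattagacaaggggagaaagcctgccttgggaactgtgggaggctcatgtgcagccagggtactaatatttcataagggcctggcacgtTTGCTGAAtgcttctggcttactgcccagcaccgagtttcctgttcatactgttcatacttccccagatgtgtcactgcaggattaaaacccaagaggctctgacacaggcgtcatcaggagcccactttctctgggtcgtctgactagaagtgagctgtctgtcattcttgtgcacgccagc
Il1r1 proximal start: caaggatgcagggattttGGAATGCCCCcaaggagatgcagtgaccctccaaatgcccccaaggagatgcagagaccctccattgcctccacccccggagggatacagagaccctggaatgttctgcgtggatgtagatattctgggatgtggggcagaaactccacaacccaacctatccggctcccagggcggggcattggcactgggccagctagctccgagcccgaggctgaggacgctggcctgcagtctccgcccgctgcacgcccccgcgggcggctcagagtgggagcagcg

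Il1r1-202, from the proximal start and with 573 codons, made up 87.5% of the FPKM of the gene and was lower in the PZH group (14.4 ± 2.31 against 29.9 ± 12.4 FPKM, difference -0.92 on the log2 scale, SE 0.24, adjusted P = 0.0172). Il1r1-201, from the distal start and with 576 codons, ranged from 0.107 to 2.05 FPKM in the PZH group and from 0.761 to 11.02 FPKM in the control group. Control 1 and Control 4 alone were above 4 FPKM. Its difference of -1.14 on the log2 scale met the criteria of the study but not the adjusted threshold (limma, adjusted P = 0.111). With single mice left out the difference ranged from -1.43 to -0.88 (limma, adjusted P up to 0.208). Only without Control 2, at -1.43, did it pass (limma, adjusted P = 0.0351). The share of the distal transcript was 7.99 ± 4.64% in PZH mice and 12.3 ± 6.46% in control mice and did not pass the test (adjusted P = 0.696).

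Il1rap, the accessory protein that every signalling interleukin-1 receptor needs, was higher in the PZH group. It ranged from 37.5 to 45.6 FPKM in the PZH group (median 40.4) and from 27.9 to 33.2 FPKM in the control group (median 31.7), with no overlap. The rise was small and even, at 40.9 ± 2.96 against 31.2 ± 1.94 FPKM (SD, n = 6), a ratio of 1.31, and the difference was 0.38 on the log2 scale (SE 0.07, 95% interval 0.24 to 0.52, adjusted P = 0.0005). Il1rap was abundant in hepatocyte-rich liver, and it moved in the same direction as 5 of the 8 hepatocyte markers, while Hnf4a was lower and Apoa1 and Cyp2f2 did not pass the test. The part of hepatocyte RNA in this result was not tested.

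Most of the listed Il1rap was the shorter, soluble form that the liver is known to make. Il1rap-206, with 8 exons and 360 codons, ends before the exons that code for the membrane-spanning and intracellular parts, and it made up 68.3% of the FPKM of the gene. It ranged from 23.8 to 32.6 FPKM in the PZH group and from 19.1 to 23.5 FPKM in the control group, which did not overlap, but its difference of 0.27 on the log2 scale missed the adjusted threshold (adjusted P = 0.0519). Without PZH 5 or PZH 6 it passed, at 0.30 (adjusted P = 0.0489) and 0.31 (adjusted P = 0.0440). The membrane form Il1rap-201, with 570 codons, rose from 8.00 ± 0.538 to 11.1 ± 1.25 FPKM (difference 0.43 on the log2 scale, SE 0.08, adjusted P = 0.00228), again without overlap. Il1rap-202, a longer form with 685 codons, rose from 1.03 ± 0.547 to 2.69 ± 1.04 FPKM (difference 0.84 on the log2 scale, adjusted P = 0.0261), but PZH 1 lay within the control range at 0.803 FPKM. That call was lost without PZH 3, PZH 4, PZH 5, PZH 6, Control 2, Control 4 or Control 5 (adjusted P up to 0.0588). The share of the soluble form was 66.0 ± 4.12% in PZH mice and 71.0 ± 1.62% in control mice, a difference of -5.03 points that did not pass the test (adjusted P = 0.363).

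Nlrp3, the sensor that macrophages raise when NF-kappaB is active, was the least abundant of the 10 genes and was lower in the PZH group. It ranged from 0.285 to 0.701 FPKM in the PZH group (median 0.541) and from 0.794 to 1.16 FPKM in the control group (median 0.893). The groups did not overlap, and PZH 4 was lowest. The means were 0.525 ± 0.139 and 0.934 ± 0.138 FPKM (SD, n = 6), a ratio of 1.78, and the difference was -0.34 on the log2 scale (SE 0.07, 95% interval -0.51 to -0.18, adjusted P = 0.00245). The full-length Nlrp3-202, with 1033 codons, was at 0.441 ± 0.220 FPKM in PZH mice and 0.463 ± 0.139 FPKM in control mice, with a difference of -0.03 (95% interval -0.27 to 0.20, adjusted P = 0.883). The call for the gene came with Nlrp3-203, a 676-base fragment at the start of the gene with an incomplete reading frame, which was listed at 0 in 3 PZH mice and ranged from 0.324 to 0.698 FPKM in the control group (difference -0.44, adjusted P = 0.00363). The lower value of Nlrp3 is therefore stated for the sum and not for the full-length transcript.

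The adaptor, the protease and the pore-former did not pass the test. Pycard, which joins sensor and protease, ranged from 1.09 to 1.96 FPKM in the PZH group and from 1.47 to 2.17 FPKM in the control group (difference -0.13, 95% interval -0.35 to 0.09, adjusted P = 0.326). Casp1, the protease, ranged from 2.26 to 5.01 FPKM and from 2.35 to 4.28 FPKM (difference 0.01, 95% interval -0.34 to 0.35, adjusted P = 0.9754). Gsdmd, the pore-former, ranged from 9.53 to 11.3 FPKM and from 8.73 to 16.6 FPKM (difference -0.17, 95% interval -0.43 to 0.09, adjusted P = 0.271). The groups overlapped for all 3, and Control 4 held the highest control value of each. Gsdmd-201 made up 92.7% of the FPKM of Gsdmd, and neither Gsdmd-202 nor Gsdmd-203 passed the test.

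Since FPKM is per length, levels of different genes can be set side by side. In the PZH group the order of the means ran from Il1rap through Il1r1, Gsdmd and Il18 to Il1a, Il1rn, Casp1, Il1b, Pycard and Nlrp3. Neighbouring ranges did not overlap from Il1rap down to Il1a, those of Il1a, Il1rn, Casp1, Il1b and Pycard overlapped in sequence, and Nlrp3 was separate. In the control group the order ran from Il1r1 through Il1rap, Il1rn, Gsdmd and Il1b to Il1a, Il18, Casp1, Pycard and Nlrp3. There Il1r1 was above Il1rap in 3 of 6 mice, and neighbours did not overlap between Il1rap and Il1rn, Casp1 and Pycard, and Pycard and Nlrp3. The mean of Il1b stood at the 32.8 percentile of all genes in the PZH group and at the 64.0 percentile in the control group. That of Il1rn stood at the 48.1 and the 81.6 percentile.

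The promoter of Il1b is shown because Il1b is the ligand that moved furthest. It lies on the minus strand of GRCm38.p6 at chr2:129371090-129371389, and capitals mark the TATA box (TATAAA), which began 31 bases before the start.
Il1b start: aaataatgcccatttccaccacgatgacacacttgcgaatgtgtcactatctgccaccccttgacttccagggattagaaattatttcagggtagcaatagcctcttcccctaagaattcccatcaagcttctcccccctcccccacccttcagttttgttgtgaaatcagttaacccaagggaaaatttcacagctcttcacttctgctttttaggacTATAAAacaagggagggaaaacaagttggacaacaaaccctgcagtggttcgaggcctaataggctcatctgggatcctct

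RefSeq held 13 promoters for 9 of the 10 genes, and Gsdmd was not among them. All were searched on both strands for 4 motifs, namely the NF-kappaB consensus, AP-1 (TGANTCA), C/EBP (TTGCNNAA) and the TATA box (TATAAA). The motifs were found in 8.46%, 7.81%, 10.8% and 13.6% of 32851 promoters of 300 bases. An NF-kappaB match was present on the opposite strand at the proximal Il1r1 start, and on the printed strand 186 bases before a start of Nlrp3. That Nlrp3 start belongs to Nlrp3-201, which was not listed, and the start of the listed Nlrp3-202 held no match. An AP-1 match was present at the upstream Il1rn start and 12 bases before the start of Il1a. A C/EBP match lay at the distal Il1r1 start and, on the opposite strand, 142 bases before the start of Pycard. The letters TATAAA lay 32 bases before the start of Il1a and 31 bases before that of Il1b. On the opposite strand they lay 175 bases before a start of Il18 and 15 bases after a further Il1rn start. That Il18 start is not the start of Il18-201 or Il18-202. No match was found at Il1rap or Casp1. A match is a string of letters in this window and was not tested as a site.

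The genes around the 10 members were described from 4 lists. The lists were chosen with earlier results of these data known, so their counts against all genes are a description only. The median of all genes was -0.17 among those with a mean of at least 1 FPKM. Of 13 other genes of the IL-1 family, 8 were listed, and 2 of these were lower and none higher (25% called, against 44.8% of all genes), with a median of -0.09 against -0.11 over all genes. With the median-ratio factor 2 were lower and 2 higher. Il33, an alarmin ligand of the family, fell from 4.74 ± 1.48 to 1.5 ± 0.270 FPKM (difference -1.17 on the log2 scale), and Il1r2, the decoy receptor that binds interleukin-1 without signalling, fell from 0.943 ± 0.358 to 0.174 ± 0.111 FPKM (difference -0.71). Neither overlapped between the groups. The interleukin-18 genes of this list, unlike Il18 itself, did not pass the test. Il18bp, the binding protein that neutralises interleukin-18, was at 12.1 ± 2.84 FPKM in the PZH group and 10.9 ± 2.37 FPKM in the control group. The interleukin-18 receptor genes Il18r1 and Il18rap were below 1 FPKM in all mice. Il36a, Il36b, Il36g, Il36rn and Il1f10 were not in the table used here.

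Of 17 genes listed for receptor signalling up to NF-kappaB, 11 fell, none rose and 6 did not pass the test. These counts stand against 44.8% of all genes called and 32.1% lower. The median of the list was -0.36 on the log2 scale, against -0.11 over all genes. With the median-ratio factor 7 fell and none rose, with a median of -0.22 against -0.005 over all genes. Nfkb1 and Rela, which code for NF-kappaB subunits, differed by -1.03 and -0.98, and Myd88, the adaptor of the receptor, differed by -0.79. Nfkb1 was at 4.09 ± 0.768 FPKM against 9.42 ± 1.89, and Myd88 at 5.64 ± 0.377 FPKM against 10.6 ± 2.39, each without overlap. The summed FPKM of the 17 genes ranged from 111 to 140 in the PZH group and from 162 to 208 in the control group. Of the receptor-proximal Irak genes, Irak4 fell (-0.42), and Irak2 at -0.30 (SE 0.39), Irak3 at -0.30 (SE 0.20) and Irak1 at -0.18 (SE 0.09) did not pass the test. Differences between the Irak genes were not tested.

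Genes known to be induced by interleukin-1 were the list with the lowest median. Of 20, 18 were listed, 15 fell and none rose, against 44.8% of all genes called and 32.1% lower. The median of the list was -1.01 on the log2 scale, against -0.11 over all genes. With the median-ratio factor 13 fell and none rose, with a median of -0.83 against -0.005 over all genes. Cxcl1, a neutrophil-attracting chemokine, ranged from 4.08 to 15.8 FPKM in the PZH group and from 18.9 to 76.6 FPKM in the control group (difference -2.52). Saa2 and Saa1, acute-phase genes of the hepatocyte, differed by -2.73 and -2.47, but Saa1 was at 224 ± 332 FPKM in the control group, with a highest control mouse at 893 FPKM and a lowest at 16.8 FPKM, within the PZH range of 10.6 to 34.8 FPKM. Saa1 and Saa2 are near-identical, so fragments may have been split between them. Nfkbia, Saa3 and Sod2 did not pass the test, and Il6 and Nos2 were not in the table used here. The list was chosen with earlier results of these data known, so its counts and median are a description only. These genes also answer other signals, and which signal moved them was not tested.

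Of 25 other inflammasome and pyroptosis genes, 24 were listed, and 4 were higher and 6 lower. That is 41.7% called, close to the 44.8% of all genes, so the count says nothing particular to the list. The median was -0.07 on the log2 scale, against -0.11 over all genes, and with the median-ratio factor the split turned to 6 higher and 2 lower. The largest rise among them was that of Nlrp6, a sensor of epithelial cells, from 12.1 ± 2.85 to 26.1 ± 4.93 FPKM (difference 1.05) without overlap, and Txnip, a thioredoxin-binding protein, rose from 24.3 ± 3.04 to 42.2 ± 10.2 FPKM (difference 0.74). Naip5, a sensor partner of Nlrc4, rose by a difference of 0.29, and like Naip6 it belongs to a family of near-identical copies, so its values are uncertain. The largest falls were those of Gsdme, a second gasdermin (-0.52), Casp4, the protease of the non-canonical inflammasome (-0.49), and Nlrp12 (-0.37).

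**Figure D4:**
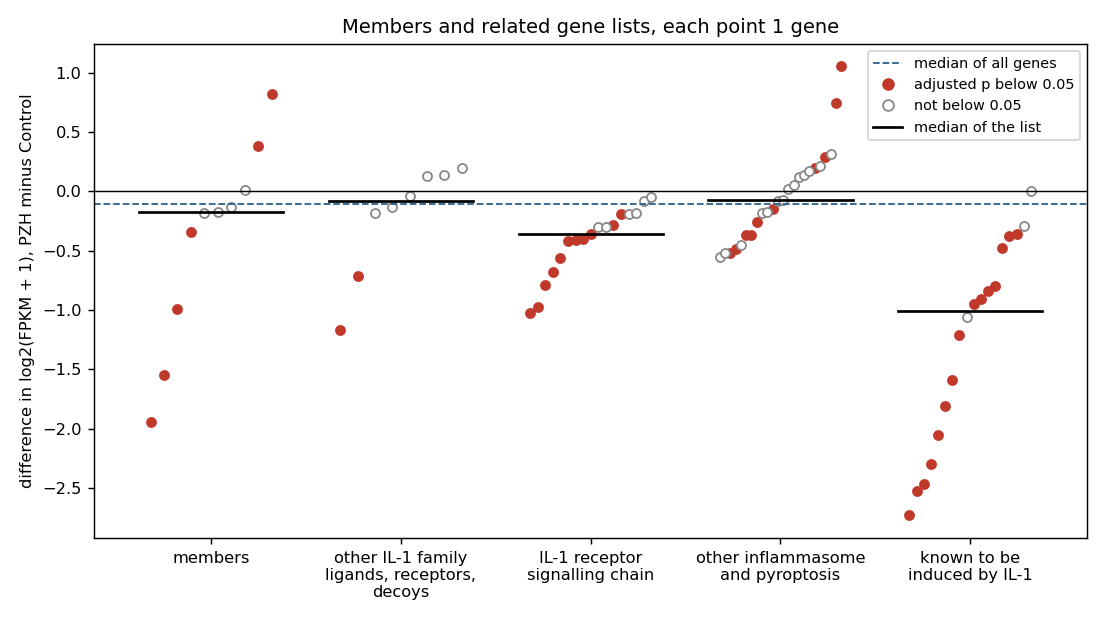
Difference in log2(FPKM + 1), PZH minus control (vertical axis), of every listed gene of the 10 members and of the 4 related lists (horizontal axis), each point 1 gene, filled where the adjusted P was below 0.05. Black bars are list medians, from -1.01 for the genes known to be induced by IL-1 to -0.07 for the other inflammasome and pyroptosis genes, and the dashed line is the median of all genes (-0.11).

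The remaining marker lists are given by their counts, to be read against the 44.8% of all genes called. None of 8 T and NK cell and 4 B cell markers was called, 1 of 6 dendritic cell markers was higher, 2 of 6 sinusoidal endothelial markers were lower, 1 of 6 stellate cell markers was higher and 2 lower, and 1 of 5 cholangiocyte markers (Sox9) was lower. The summed FPKM of each of these lists overlapped between the groups. Many of the immune markers were weakly expressed, with 8 of 8 T and NK cell, 3 of 4 B cell and 4 of 6 dendritic cell markers at a mean below 1 FPKM.

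The genes whose levels varied most like Il1b and Il1r1 from mouse to mouse were found among 10939 genes with a mean of at least 1 FPKM, by the correlation of deviations from the group means over the 12 mice. For Il1b these were Ogfr (r = 0.950), Ier3 (r = 0.931), an immediate-early gene, and Klf6 (r = 0.930), a transcription factor. For Il1r1 they were Syt12 (r = 0.955), Nfil3 (r = 0.923), a transcription factor, and Slc37a1 (r = 0.917). The likeness was closer among the control mice, which were spread more widely, with r of 0.954 to 0.987 for these 6 genes, than among the PZH mice, where it was 0.460 for Slc37a1, 0.605 for Nfil3, 0.755 for Ier3 and 0.864 to 0.936 for the other genes. All points share the library and its scaling, so these values are a description only.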

How the data were processed

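Total RNA of 12 livers (6 PZH, 6 control) was extracted with TRIzol, depleted of ribosomal RNA and made into strand-specific libraries. Per the labels and methods, the authors used Trimmomatic for trimming and HISAT2 for mapping to GRCm38, and assembled transcripts with StringTie on the Ensembl annotation. The authors deposited FPKM per transcript and mouse on a linear scale, normalised to transcript length and library size. All 12 columns were assigned by the group and number in their names. A listed transcript had a summed FPKM over the 12 mice of at least 1. The table of lncRNA transcripts was not used here.

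The FPKM values of 29883 protein-coding transcripts were used as deposited. Genes were assigned with GENCODE M21 (29876 transcripts matched), and gene values are sums of transcripts. Differences in log2(FPKM + 1) were tested with limma 3.58.1 in R 4.3.3, with Benjamini-Hochberg adjustment over all features and no filter on low values. Shares of a transcript in its gene, in percent, were tested the same way. Ratios per mouse were compared by a two-sided exact permutation test over all labellings. Other steps used Python 3.11.15, pandas 2.3.3, numpy 2.4.6 and matplotlib 3.10.9. FPKM does not give the read counts, so counting intervals could not be had and the spread between mice serves as the precision of a value. Summed FPKM per mouse ranged from 325302 to 370426, and no pair of mice had identical columns.

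All members were named, with every transcript called or making up at least 20% of its gene, and from each related list the 3 largest rises and 3 largest falls among called genes. The members and lists were chosen with earlier results of these data known. Doses, age and week are those of the study's methods. Motif searches used RefSeq promoters of GRCm38.p6. In simulated independent normal values, 200 genes or transcripts with a mean of at least 1 FPKM were changed by 1.5 on the log2 scale. Of these, 96.5% were recovered in the gene comparison with 13 false calls, and 84.5% in the transcript comparison with 10. Smaller differences, correlated genes and a share of called genes as high as in these data were not simulated. Alternatives tried were leaving out single mice, a block by mouse number, a mean-variance trend in limma, an equal sum or a median-ratio factor per mouse, a lower limit of 1 on the mean FPKM, and a pseudocount of 0.1.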

Additional observations from a re-analysis of the deposited data

How the results depend on the processing

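The 6 called genes kept their call and direction under every alternative that tested them, with adjusted P from 8.0e-06 to 0.0220 (limma); Nlrp3 was not tested at a mean of at least 1 FPKM, so 5 members were called there. Of the genes not called, Gsdmd turned to 0.000470 under the median-ratio factor and Casp1 to -0.0268 under an equal sum per mouse, and Casp1 ranged from -0.0941 to 0.0824 with single mice left out. Genes meeting the criteria of the study rose from 570 to 1317 with a pseudocount of 0.1, and transcripts from 966 to 2981, members among them from 4 to 8. Of 177 transcript values, each of 1 member transcript under 1 alternative, 18 lost and 5 gained the call. Il18-203 kept its call in 7 of 17 alternatives and Il1rap-202 in 11 of 18. Il1rap-206 passed under the median-ratio factor (0.45, adjusted P = 0.0191) and at a mean of at least 1 FPKM (adjusted P = 0.0429), and Il18-203 did not under an equal sum (adjusted P = 0.0538).

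With single mice left out, 34 to 80 shares were called in place of 76, and 0 to 1 of the members. The ratio of Il1rn to Il1a plus Il1b kept its call except against Il1b alone (-0.202, exact permutation test, P = 0.548), and ranged from -1.261 to -1.003 with single mice left out.

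The mouse numbers shared by the groups did not pair the mice. The correlation of deviations between same-numbered mice was -0.0784 to 0.0929, and 0 of 6 correlated best with their own number. With the number as a replicate block, 2 shares were called and 0 among the members, and Il1rn-204 had an adjusted P of 0.294, Il1r1-202 of 0.0570 and Il18-203 of 0.0836 (limma).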
